A study of Mus musculus with 96 samples.

Results

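The secreted chemokines Ccl7, Ccl12, Ccl4 and Cxcl2 and the chemokine-binding receptor gene Ccrl2 were followed in RAW 264.7 cells, an established mouse macrophage-like line, after exposure to single ligands and ligand pairs. Every array probe whose platform gene symbol is 1 of these 5 genes was taken, which gave 12 probes of the 16281 on the array, and 5 of 10698 genes with a symbol. Ccl4 and Ccl7 had 3 probes each, and Ccl12, Cxcl2 and Ccrl2 had 2 each. Each probe is described on its own, because probes of the same gene differed in how often they gave a value and in whether they responded.

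Cells received bacterial lipopolysaccharide (LPS, 100 ng with no volume stated, together with LPS binding protein at 100 pM), interferon gamma (IFNG, 5 nM), the purinergic receptor agonist 2-methyl-thio-ATP (2MA, 500 uM), LPS with IFNG, or LPS with 2MA. They were collected after 1, 2 and 4 h, and with LPS alone also after 30 min, which gave 16 groups. Each group held 3 numbered sets, and each set was hybridised on 2 arrays with the dyes exchanged, so there were 96 arrays. All groups share the line, and untreated cells of the same time were the other channel of every array. A value here is the log2 ratio of treated to untreated RNA, so 0 means no difference and 1 means a doubling. Where a mean is given with ±, the SD is over the sets of that group (n = 3 unless stated).

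Chemokines are small secreted proteins that guide leukocytes by binding G protein-coupled receptors. Ccl7 and Ccl12 are ligands of Ccr2, the receptor that brings monocytes to inflamed tissue. Ccl4 (MIP-1 beta) attracts monocytes and T cells, and Cxcl2 (MIP-2) acts on the neutrophil receptor Cxcr2. Ccrl2 does not signal like a chemokine receptor, and it presents the chemoattractant chemerin at the cell surface. In macrophages, LPS acts through Toll-like receptor 4 and NF-kB, and extracellular nucleotides act through P2 receptors.

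Between 13508 and 15004 probes had a value on an array, with a median of 14749.5. Before the signs were aligned, the 2 arrays of a set correlated between -0.784 and 0.396 over all probes, and 10 of 48 pairs lay above 0; each value below is the mean of both arrays of a set where both gave one. Il1b and Tnf, early LPS genes used to check direction, were above 0 on every array with LPS alone that measured them. Of the 7 macrophage markers listed, 5 had a value on all 96 arrays, Lyz2 had a value on 3 arrays and Itgam had no probe, but a ratio shows change and not presence. Whether each set came from its own culture is not stated, and p-values therefore reflect only the variation among sets, some or all of which can be technical. In RNA of a whole culture, more responding cells and more RNA per cell cannot be told apart.

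A probe was tested with limma over the whole table where each group in the comparison had at least 2 sets with a value, and it was called at a Benjamini-Hochberg adjusted p under 0.05. All 12 probes had a value on some array, and 7 of them had a mean in all 16 groups. Counting a gene as called at a time if any of its probes was called, LPS alone gave 14 calls over its 4 times, all upward. LPS with IFNG gave 15 calls over 3 times and LPS with 2MA gave 12. Cxcl2 could be tested at 2 of the 4 times with LPS, at 1 of 3 with LPS and 2MA and at all 3 with LPS and IFNG. The other genes could be tested by at least 1 probe at every time, so these counts have different denominators. For Ccrl2 at 4 h of IFNG or 2MA alone, this was only probe 15296, which was called in 0 of its 16 tests. Shares of all probes called upward follow in the next paragraph. 2MA alone gave 9 calls, 3 each for Ccl7, Ccl4 and Cxcl2, and IFNG alone gave 2, both for Ccl12. No probe of these genes was called downward in any of the 16 responses. Of all probes tested, 0.273%, 2.15%, 7.08% and 14.3% were called downward at the 4 LPS times, 0.127%, 0.54% and 5.26% with IFNG, and 0.652%, 0.206% and 0.502% with 2MA. With LPS and IFNG these shares were 2.8%, 9.34% and 16.5%, and with LPS and 2MA 1.69%, 7.9% and 16.4%.

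Set against the whole array, 3 of 9 tested probes of these genes rose with LPS at 30 min, where 0.807% of all probes tested rose. The counts were 6 of 11 at 1 h (3.2% of all probes), 6 of 8 at 2 h (7.34%) and 7 of 9 at 4 h (11.9%). With IFNG they were 0 of 11 at 1 h (1% of all probes), 2 of 11 at 2 h (2.86%) and 2 of 10 at 4 h (6.33%). With 2MA 5 of 10 rose at 1 h (0.951% of all probes), 5 of 10 at 2 h (1.17%) and 4 of 9 at 4 h (1.45%). With LPS and IFNG together 8 of 10 rose at 1 h (4.67%), 7 of 9 at 2 h (9.39%) and 9 of 10 at 4 h (14.5%). With LPS and 2MA together 4 of 8 rose at 1 h (3.45%), 6 of 8 at 2 h (8.1%) and 8 of 9 at 4 h (14.1%).

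**Figure D1:**
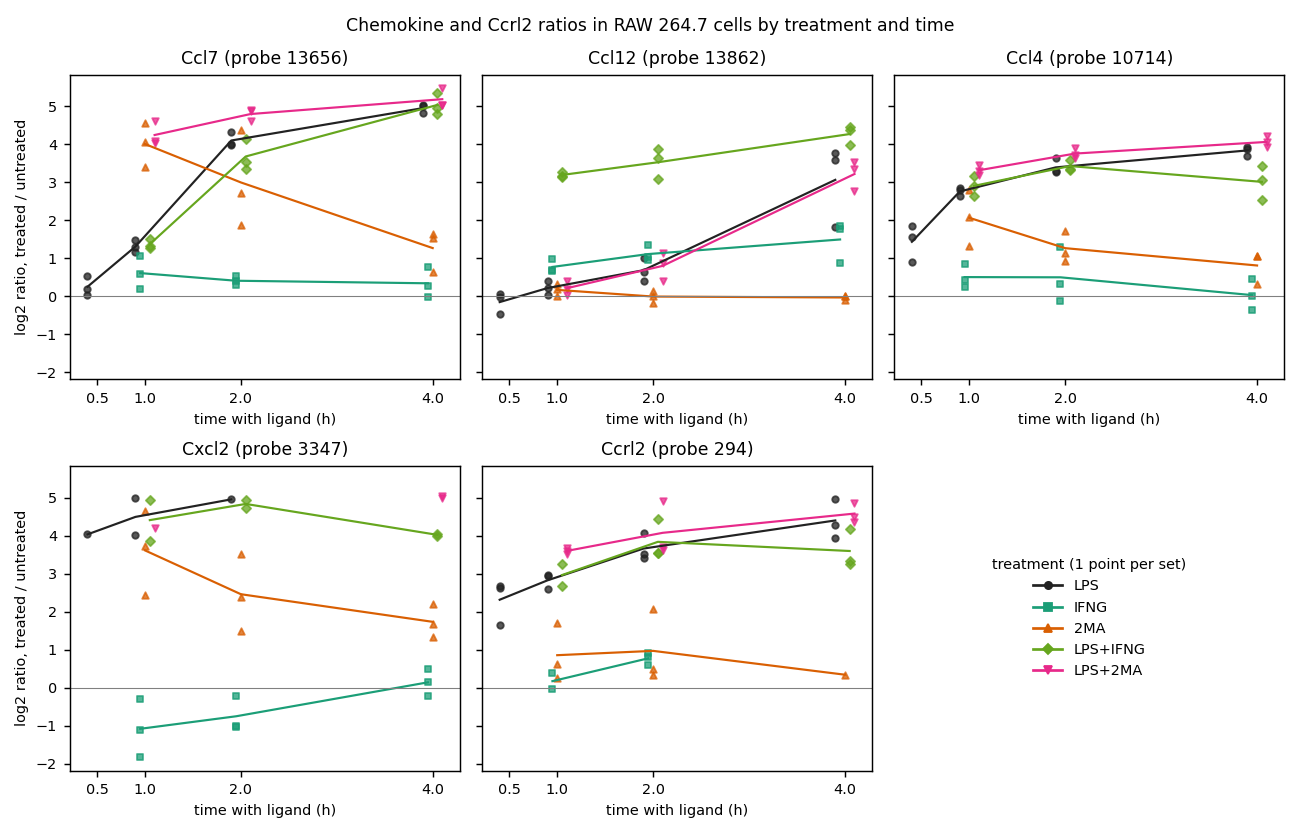
Log2 ratio of treated to untreated RNA (y axis) against time in hours (x axis) for 1 probe of each gene, that with the widest range of group means among probes with a mean in at least 12 groups. Points are sets, lines join group means at neighbouring times, and colours are treatments; Ccl7 is already near 4 at 1 h in the groups with 2MA, and Ccl12 is above 3 at 1 h in the group with LPS and IFNG only.

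The upstream sequence is shown for Ccl12, Cxcl2 and Ccrl2, the 3 of the 5 genes that matched the RefSeq promoter table used here. All 3 were called upward with LPS, and they differed in which other single ligand gave a call. Ccl12 was also called with IFNG, Cxcl2 with 2MA, and Ccrl2 with neither. Ccrl2 probe 294 had no value on 17 of 36 arrays without LPS, and it could not be tested at 4 h of IFNG or 2MA alone. Each line gives the 250 bases before a RefSeq start site in build GRCm38.p6, read 5′ to 3′ on the gene's strand.
Ccl12: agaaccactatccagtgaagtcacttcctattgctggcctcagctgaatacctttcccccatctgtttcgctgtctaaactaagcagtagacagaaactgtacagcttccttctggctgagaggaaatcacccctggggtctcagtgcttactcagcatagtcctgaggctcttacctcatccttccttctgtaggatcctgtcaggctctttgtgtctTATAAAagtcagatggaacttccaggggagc
Cxcl2: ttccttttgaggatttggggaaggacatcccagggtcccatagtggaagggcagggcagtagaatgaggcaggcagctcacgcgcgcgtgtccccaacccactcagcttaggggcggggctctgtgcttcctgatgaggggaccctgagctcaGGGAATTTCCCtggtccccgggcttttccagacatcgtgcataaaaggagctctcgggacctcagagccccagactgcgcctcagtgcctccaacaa
Ccrl2: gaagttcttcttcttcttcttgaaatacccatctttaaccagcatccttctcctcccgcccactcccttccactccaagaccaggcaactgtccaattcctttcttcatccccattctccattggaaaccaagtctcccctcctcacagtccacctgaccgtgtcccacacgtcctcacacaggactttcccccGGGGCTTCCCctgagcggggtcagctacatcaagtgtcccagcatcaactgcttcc
The windows are chr11:82101595-82101844 on the plus strand for Ccl12, chr5:90903649-90903898 on the plus strand for Cxcl2, and chr9:111057519-111057768 on the minus strand for Ccrl2, at the first of 3 listed Ccrl2 starts. Capitals mark a TATAAA box in Ccl12, which lies 31 to 26 bases before the start, and matches to the kB consensus in Cxcl2 and Ccrl2. The Cxcl2 capitals are 2 overlapping kB matches, 1 on each strand, that together span 97 to 87 bases before the start. The Ccrl2 match lies 56 to 47 bases before the start and matches on both strands, and the other 2 listed Ccrl2 starts had none. Both strands were searched in 32851 windows of this length, of which 7.25% held a kB match and 12.4% a TATAAA. None of the Ccl12, Cxcl2 and Ccrl2 windows held TTCNNNGAA (the GAS element, in 7.02% of windows), the ISRE core (in 2.98%) or TGANTCA (the AP-1 site, in 6.75%). A match is a description of these letters and not a bound site.

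Ccl7, a Ccr2 ligand, was called with LPS from 1 h on, rose with 2MA most at 1 h with lower means at 2 and 4 h, and was not called with IFNG. Probe 13656 read 0.18, 0.04 and 0.53 in the 3 sets after 30 min of LPS, then 1.30, 1.15 and 1.47 at 1 h. At 2 h it read 4.00, 4.33 and 3.97, and at 4 h 5.01, 5.03 and 4.82. The sets of these 4 times did not overlap, and each time was higher than the one before. The means were 0.25 ± 0.25 at 30 min (adjusted p = 1), 1.31 ± 0.16 at 1 h (adjusted p = 0.000272), 4.10 ± 0.20 at 2 h and 4.95 ± 0.12 at 4 h, the last 30.9-fold above untreated cells. The F test over the 4 LPS times gave an adjusted p of 6.9e-14 for this probe, and 7 of 8 tested probes of the 5 genes passed it, where 15.2% of all probes did.

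With 2MA alone the same probe read 4.56, 3.41 and 4.05 at 1 h, 4.38, 1.89 and 2.72 at 2 h, and 1.65, 0.63 and 1.52 at 4 h. Set 1 was the highest at each time, and the sets of 1 and 2 h overlapped while those of 4 h lay below all of them. The means were 4.01 ± 0.58 at 1 h (adjusted p = 1.67e-14), 2.99 ± 1.27 at 2 h (adjusted p = 1.12e-10) and 1.27 ± 0.55 at 4 h (adjusted p = 0.00184). The call at 4 h was lost without set 1 (1.08, adjusted p = 0.0776) and without set 3 (1.14, adjusted p = 0.15). After 1 h with 2MA the response was 16.1-fold, when LPS alone had given 2.47-fold. With IFNG the means were 0.61 ± 0.44, 0.41 ± 0.12 and 0.34 ± 0.40 at 1, 2 and 4 h, with adjusted p from 0.493 to 0.75. Probe 18303 gave 0.80, 0.72 and 0.64 (adjusted p = 0.179, 0.14 and 0.0983), and a fit to each of these groups alone called all 3 (adjusted p = 0.00479, 0.00216 and 0.0352).

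The second Ccl7 probe, 18303, followed the same course. At 30 min of LPS it read 0.55 ± 0.10, not called, though the fit to that group alone called it (adjusted p = 0.024). It read 1.80 ± 0.04, 4.42 ± 0.40 and 4.80 ± 0.38 with LPS at 1, 2 and 4 h. With 2MA it read 4.06 ± 0.74, 3.60 ± 1.10 and 2.09 ± 0.62. Over all 48 set values it correlated with probe 13656 at a Pearson r of 0.987, as a description of 2 probes that share their RNA. The third probe, 9667, correlated with them at 0.363 and 0.306. Its group means lay between -0.21 and 0.74, and it was called with LPS at 4 h (0.52 ± 0.26, adjusted p = 0.000321), with LPS and IFNG at 4 h (0.30 ± 0.13, adjusted p = 0.0348) and with LPS and 2MA at 4 h (0.74 ± 0.21, adjusted p = 1.2e-06). The call for LPS and IFNG was lost without any 1 of the 3 sets, with adjusted p from 0.0666 to 0.183. All 3 Ccl7 probes had a value on all 96 arrays. The transcript read by probe 9667 was not analysed here.

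Adding 2MA to LPS raised Ccl7 at 1 h, and no difference was called at the later times. Probe 13656 read 4.62, 4.03 and 4.08 with LPS and 2MA at 1 h, against 1.30, 1.15 and 1.47 with LPS alone, and the groups did not overlap. The difference was 2.94 (SE 0.35, 95% interval 2.23 to 3.64, adjusted p = 1.47e-06), a 7.65-fold higher ratio, and it was 3.32, 2.88 and 2.61 in the 3 sets. Of 14893 probes tested in this comparison this was the largest rise, and probe 18303 had the third largest, 2.64 (SE 0.35, adjusted p = 1.72e-05). Only 17 probes were called here, 0.114% of those tested, and 2 of the 8 tested probes of these 5 genes were among them, both of Ccl7. Probe 13656 stayed called without any 1 set, while probe 18303 gave 2.52 with an adjusted p of 0.0702 without set 3.

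At 2 h the same difference was 0.70 for probe 13656 (SE 0.35, adjusted p = 0.999), and at 4 h it was 0.23 (95% interval -0.47 to 0.93, adjusted p = 1). No probe of the 5 genes passed at 2 h, where 0.0402% of all probes did, or at 4 h, where 0.283% did. The LPS and 2MA sets read 4.89, 4.88 and 4.61 at 2 h, above all LPS sets. At 4 h they read 5.05, 5.04 and 5.47, with the lowest next to the highest LPS set of 5.03. A test of the change between times, chosen after these values were seen, gave -2.70 at 4 h relative to 1 h for probe 13656 (SE 0.49, adjusted p = 0.0207). Probe 18303 gave -2.31 (SE 0.50, adjusted p = 0.121) and was not called. In this test 3 of 14743 probes were called, 0.0203%, and the call of probe 13656 was lost without any 1 set, with adjusted p from 0.335 to 0.637.

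2MA and LPS given singly were also set against each other. At 1 h probe 13656 was 2.70 higher with 2MA than with LPS (SE 0.35, adjusted p = 2.55e-06) and probe 18303 was 2.27 higher (SE 0.35, adjusted p = 6.24e-05), the highest differences of 14922 probes tested, of which 0.456% were called upward. Without set 3, probe 18303 gave 2.11 (adjusted p = 0.0513). At 2 h the difference was -1.10 (SE 0.35, adjusted p = 0.0579) for probe 13656, with set 1 at 0.38 and the other 2 sets at -2.44 and -1.25. That difference was called with the set as a block (adjusted p = 0.016) and without set 1 (-1.85, adjusted p = 0.00245). At 4 h the order was reversed, at -3.68 (SE 0.35, adjusted p = 1.9e-10) and -2.72 (SE 0.35, adjusted p = 2.36e-07) for the 2 probes. Only Ccl7 was called upward at 1 h among the 5 genes, while Ccrl2 was called downward (1.1% of all probes).

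On the log2 scale, the joint response of Ccl7 to LPS and 2MA stayed below the sum of its single responses at 2 h. A sum of log2 ratios is a product of fold ratios, and a sum of fold ratios was not tested. At 2 h the fold ratios of probe 13656 were 17.1 with LPS, 7.97 with 2MA and 27.8 with both. Those of probe 18303 were 21.4, 12.1 and 30.2, so each joint ratio was above either single ratio. No deposited ratio exceeded 100-fold, and the product of the single ratios at 2 h lay above this for both probes. If 100-fold was a limit of recording, a joint ratio equal to that product could not appear. The sign and adjusted p of the departures at 2 h therefore do not decide whether the responses add. The joint ratios themselves were below 100-fold. The same limit applied to probe 18303 at 4 h. For probe 13656 the departure from the sum was -2.30 (SE 0.42, adjusted p = 0.019), with -3.48, -1.33 and -2.07 in the 3 sets. For probe 18303 it was -3.10 (SE 0.43, adjusted p = 0.000263), the lowest value among 14888 probes. Only 4 probes were called at 2 h, 0.0269% of those tested, and 2 of them were these. At 1 h the departures were -1.07 and -1.42 (adjusted p = 0.998 for both, with 0.0202% of all probes called) and at 4 h -1.03 and -1.76 (adjusted p = 1 and 0.181, with 0.0813% called). Without the sets whose arrays correlated above 0, both were called at 4 h (-1.35, adjusted p = 0.0334, and -2.09, adjusted p = 0.00827), and single arrays called probe 18303 (adjusted p = 0.0476). Without set 3 neither probe was called at 2 h (-2.41, adjusted p = 0.372, and -3.19, adjusted p = 0.124). Without set 1 probe 13656 gave -1.70 (adjusted p = 1), and a fit to these 3 groups alone called neither.

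With IFNG added to LPS, no Ccl7 probe was called against LPS alone. The differences from LPS alone were 0.06, -0.42 and 0.08 at 1, 2 and 4 h for probe 13656, with 95% intervals of -0.64 to 0.76, -1.12 to 0.28 and -0.62 to 0.78. Ordered by mean, this probe was highest with LPS and 2MA at 4 h (5.19 ± 0.25), then with LPS and IFNG at 4 h (5.04 ± 0.28), LPS at 4 h (4.95 ± 0.12) and LPS and 2MA at 2 h (4.79 ± 0.16). Neighbours in that order overlapped in their sets. LPS and 2MA at 1 h (4.24 ± 0.33), LPS at 2 h (4.10 ± 0.20), 2MA at 1 h (4.01 ± 0.58) and LPS and IFNG at 2 h (3.68 ± 0.41) came next and also overlapped with their neighbours.

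**Figure D2:**
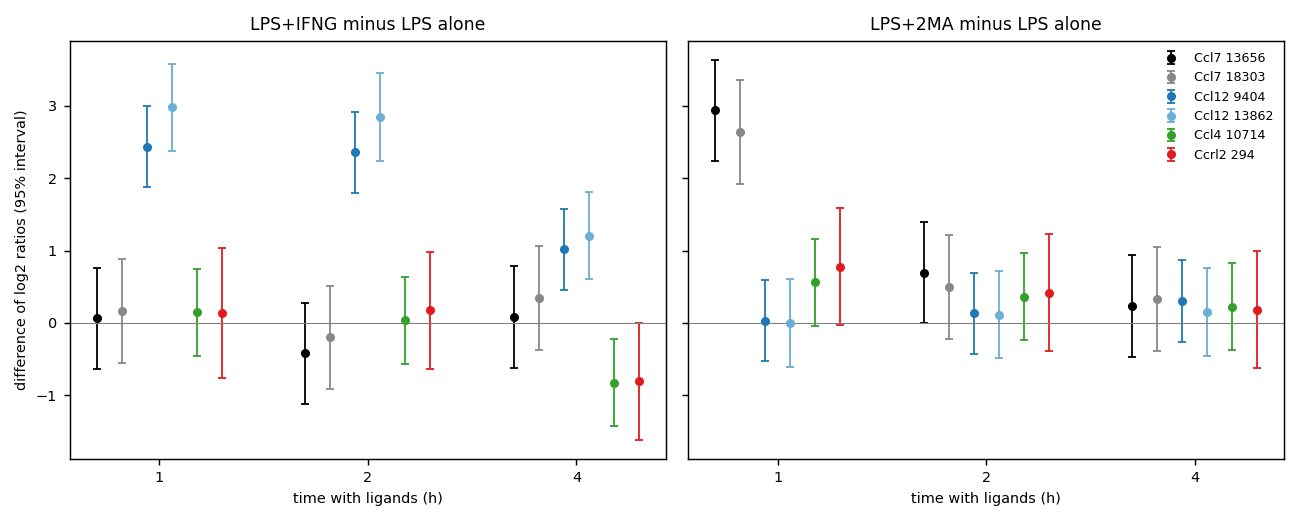
Difference of log2 ratios between LPS with a second ligand and LPS alone (y axis) at 1, 2 and 4 h (x axis), for the 6 probes tested at all 3 times with both ligands and called in at least 6 of the 16 responses. Bars are 95% intervals of the fit; with IFNG the 2 Ccl12 probes lie above 2 at 1 and 2 h, and with 2MA the 2 Ccl7 probes lie above 2 at 1 h only.

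Ccl12, the other Ccr2 ligand, had a different pattern: it rose late with LPS, rose with IFNG at 2 and 4 h, was not called with 2MA, and rose early when LPS and IFNG were given together. With LPS alone probe 13862 read 0.39, 0.21 and 0.04 at 1 h, 0.63, 1.02 and 0.40 at 2 h, and 3.59, 3.78 and 1.82 at 4 h. The 4 h sets lay above all others and set 3 was the lowest by a wide margin. The means were 0.21 ± 0.18 (adjusted p = 0.845), 0.68 ± 0.31 (adjusted p = 0.022) and 3.06 ± 1.08 (adjusted p = 8.83e-15). The call at 2 h was lost without set 1 (adjusted p = 0.17) and without set 2 (adjusted p = 0.241). Probe 9404 gave 0.04 ± 0.12, 0.69 ± 0.21 and 2.69 ± 0.68, and the 2 probes correlated at 0.958 over 48 sets.

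With IFNG alone probe 13862 read 0.97, 0.68 and 0.67 at 1 h, 1.02, 1.36 and 0.95 at 2 h, and 0.87, 1.77 and 1.84 at 4 h. Every one of these arrays was above 0. The means were 0.77 ± 0.17 (adjusted p = 0.0688), 1.11 ± 0.22 (adjusted p = 0.000416) and 1.49 ± 0.54 (adjusted p = 1.17e-06), the last a 2.81-fold ratio. The 1 h value was called in a fit of single arrays (adjusted p = 0.00127), and the 2 h call was lost without set 2 (0.99, adjusted p = 0.055). With 2MA its means were 0.17, -0.01 and -0.03, each with an SD of at most 0.17, and none was called.

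With LPS and IFNG together probe 13862 read 3.27, 3.14 and 3.17 at 1 h, when LPS alone read 0.39, 0.21 and 0.04 and IFNG alone read 0.97, 0.68 and 0.67. The highest set of either single ligand was thus 0.97, and the lowest joint set was 3.14. At 2 h the joint sets read 3.63, 3.88 and 3.07, and at 4 h 3.97, 4.46 and 4.38. Above LPS alone, this was 2.98 at 1 h (SE 0.30, adjusted p = 3.8e-09), 2.84 at 2 h (SE 0.30, adjusted p = 8.47e-09) and 1.21 at 4 h (SE 0.30, adjusted p = 0.011). Probe 9404 gave 2.43, 2.36 and 1.02 (adjusted p = 7.29e-08, 1.11e-07 and 0.0242). Ccl12 was the only 1 of the 5 genes called in this comparison, with 2 of 10 tested probes at 1 h (1.03% of all probes), 2 of 8 at 2 h (1.88%) and 2 of 8 at 4 h (2.45%).

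The 4 h difference rested on set 3. It was 0.38, 0.68 and 2.56 in the 3 sets for probe 13862 and 0.36, 0.69 and 2.01 for probe 9404. Without set 3 it was 0.53 (adjusted p = 0.466) and 0.52 (adjusted p = 0.759), without set 1 probe 13862 gave 1.62 (adjusted p = 0.0641), and without set 2 probe 9404 gave 1.18 (adjusted p = 0.0769). At 1 and 2 h both probes stayed called without any 1 set. The change of the difference from 1 h to 4 h, tested after these values were seen, was -1.77 for probe 13862 (SE 0.42, adjusted p = 0.0204) and -1.42 for probe 9404 (SE 0.39, adjusted p = 0.0647, or 0.00947 with the set number as a block). In this test 1.26% of all probes were called, and the call of probe 13862 was lost without set 1 (-1.41) and without set 2 (-1.53).

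At 1 h the joint Ccl12 response also exceeded the sum of the single responses on the log2 scale. The departure was 2.21 for probe 13862 (SE 0.37, adjusted p = 0.00146, and 1.91, 2.25 and 2.46 in the sets) and 1.82 for probe 9404 (SE 0.34, adjusted p = 0.00765). They ranked 9 and 14 from the top of 14806 probes, of which 0.101% were called upward. At 2 h the departures were 1.73 (SE 0.37, adjusted p = 0.0135, with 0.161% of all probes called upward) and 1.18 (SE 0.34, adjusted p = 0.2). The 2 h call of probe 13862 was lost without set 1 (1.61, adjusted p = 0.618) and without set 2 (1.85, adjusted p = 0.264). At 4 h they were -0.29 and -0.49, with 95% intervals of -1.03 to 0.45 and -1.18 to 0.20, neither of them called where 0.621% of all probes were called upward. Leaving out 1 set moved the 1 h departure of probe 13862 only between 2.08 and 2.35, but its adjusted p was 0.324 without set 1 and 0.16 without set 2, and probe 9404 was not called without any 1 of the sets.

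Adding 2MA to LPS gave no called difference in Ccl12 at any time. The differences for probe 13862 had 95% intervals of -0.61 to 0.60 at 1 h, -0.49 to 0.72 at 2 h and -0.45 to 0.76 at 4 h. Ordered by mean, probe 13862 was highest with LPS and IFNG at 4 h (4.27 ± 0.26), 2 h (3.53 ± 0.41) and 1 h (3.19 ± 0.07), beside LPS and 2MA at 4 h (3.22 ± 0.39) and LPS at 4 h (3.06 ± 1.08). Among these 5 groups, the 4 h sets with LPS and IFNG lay above all sets of the other groups, and the sets of the other 4 overlapped.

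Ccl4, an attractant of monocytes and T cells, rose within 30 min of LPS, and its mean was higher at each later time. Probe 10714 read 0.90, 1.55 and 1.85 at 30 min, 2.63, 2.80 and 2.84 at 1 h, 3.28, 3.63 and 3.26 at 2 h, and 3.88, 3.69 and 3.94 at 4 h. The sets of neighbouring times did not overlap. The means were 1.43 ± 0.48 (adjusted p = 1.24e-05), 2.76 ± 0.11, 3.39 ± 0.21 and 3.84 ± 0.13, the last a 14.3-fold ratio. With 2MA the sets read 2.80, 2.07 and 1.31 at 1 h, 1.71, 1.15 and 0.93 at 2 h, and 1.05, 0.33 and 1.05 at 4 h. These overlapped between neighbouring times, and set 1 was the highest at 1 and 2 h.

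The 2MA means of probe 10714 were 2.06 ± 0.75 (adjusted p = 2.44e-08), 1.26 ± 0.40 (adjusted p = 0.000231) and 0.81 ± 0.41 (adjusted p = 0.0313). Without set 1 the 2 h mean was 1.04 (adjusted p = 0.0845), and at 4 h the call was lost without any 1 set (adjusted p from 0.0797 to 0.447). Against LPS alone, the 2MA response differed by -0.69 at 1 h (adjusted p = 0.4, or 0.0401 in a fit of single arrays), -2.13 at 2 h (adjusted p = 2.99e-06) and -3.03 at 4 h (adjusted p = 4.84e-10). With IFNG the means were 0.50 ± 0.32, 0.50 ± 0.73 and 0.03 ± 0.41, and none was called. Cy3 arrays alone called this probe at 1 and 2 h (adjusted p = 0.0443 and 0.0491). Probe 13530 gave 0.63 ± 0.31, 0.62 ± 0.67 and -0.08 ± 0.39 with IFNG, also not called. A fit of single arrays called probe 13530 at 1 and 2 h (adjusted p = 0.0488 and 0.0223). The fit to the 1 h group alone called it as well (adjusted p = 0.0254). At 1 h the mean of Ccl4 was thus lower with 2MA than with LPS and that of Ccl7 was higher, a difference between the genes that was not itself tested.

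With LPS and IFNG probe 10714 read 2.65, 2.91 and 3.16 at 1 h, 3.33, 3.35 and 3.59 at 2 h, and 3.05, 2.54 and 3.44 at 4 h. At 4 h each joint set lay below every LPS set, and the difference was -0.83 (SE 0.30, 95% interval -1.43 to -0.22). It missed the threshold (adjusted p = 0.145) and passed it in a fit of single arrays (-0.83, adjusted p = 0.0134). With LPS and 2MA the means were 3.32 ± 0.13, 3.75 ± 0.13 and 4.06 ± 0.15, and the differences from LPS were 0.56, 0.36 and 0.22, positive in all 3 sets at each time and not called. The departure from the sum of LPS and 2MA at 1 h was -1.50 (SE 0.36, adjusted p = 0.425), called only in the fit of single arrays (-1.47, adjusted p = 0.00651).

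The other Ccl4 probes often had no value. Probe 13530 had none on 39 of 60 arrays with LPS and on 1 of 36 without it. Probe 6379 had none on 59 of 60 arrays with LPS, on 17 of 18 with 2MA alone and on 5 of 18 with IFNG alone. Over all probes measured at all, 5.45% of values were missing on arrays with LPS and 5.25% on those without. Where both were measured, probe 13530 read close to probe 10714 (r = 0.988 over 31 sets, mean absolute difference 0.154). It gave 1.54 ± 0.38 at 30 min of LPS, 2.83 ± 0.08 at 1 h (n = 2) and 2.05 ± 0.77 at 1 h of 2MA, and it had no value at 4 h of LPS. The sources used here do not state how these values were removed.

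Cxcl2, the Cxcr2 ligand that draws neutrophils, rose with LPS and with 2MA as far as it was measured. Probe 3347 had no value on 40 of 60 arrays with LPS and on 1 of 36 without. With LPS it read 4.03 in 1 set at 30 min, 4.98 and 4.00 in 2 sets at 1 h, and 4.95 in 1 set at 2 h, with no value at 4 h. Only the 1 h group could be tested, and its mean was 4.49 ± 0.69 (n = 2, adjusted p = 8.37e-08). All 6 LPS arrays with a value were above 0. With LPS and IFNG it was 4.41 ± 0.76, 4.83 ± 0.14 and 4.02 ± 0.02 at 1, 2 and 4 h (n = 2 each), and with LPS and 2MA 5.02 ± 0.05 at 4 h (n = 2), a 32.4-fold ratio.

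With 2MA alone probe 3347 read 4.66, 3.73 and 2.44 at 1 h, 3.50, 2.39 and 1.48 at 2 h, and 2.19, 1.34 and 1.66 at 4 h. Set 1 was the highest at each time, as it was for Ccl7, and neighbouring times overlapped. The means were 3.61 ± 1.11 (adjusted p = 8.16e-07), 2.46 ± 1.01 (adjusted p = 0.000197) and 1.73 ± 0.43 (adjusted p = 0.00768). Leaving out set 1 gave 1.93 at 2 h (adjusted p = 0.16) and no call at 4 h (adjusted p = 0.328), and without set 2 the 4 h value was 1.92 (adjusted p = 0.0876). With IFNG it read -1.13, -0.31 and -1.82 at 1 h and -1.05, -1.0 and -0.22 at 2 h. Every one of these arrays was below 0, yet the means of -1.09 ± 0.76 and -0.76 ± 0.46 missed the threshold (adjusted p = 0.268 and 0.485).

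The IFNG value of Cxcl2 at 1 h was called in the fit of single arrays (adjusted p = 0.00342) and in the fit to that group alone (adjusted p = 0.0285), and the 2 h value in the fit to its group alone (adjusted p = 0.0138). At 4 h of IFNG the mean was 0.14 ± 0.35. The other Cxcl2 probe, 6063, had 12 values on 96 arrays, and no set had a value in both dye orientations. Its 2 values at 4 h of LPS averaged -1.27 (adjusted p = 0.0539), called in a fit to that group alone (adjusted p = 0.00293), while its 2 values at 1 h of LPS were 1.26 and -0.64. Where both probes had a value, in 9 sets, the median of probe 6063 minus probe 3347 was -4.64, and it was called in neither of its 2 tested responses.

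**Figure D3:**
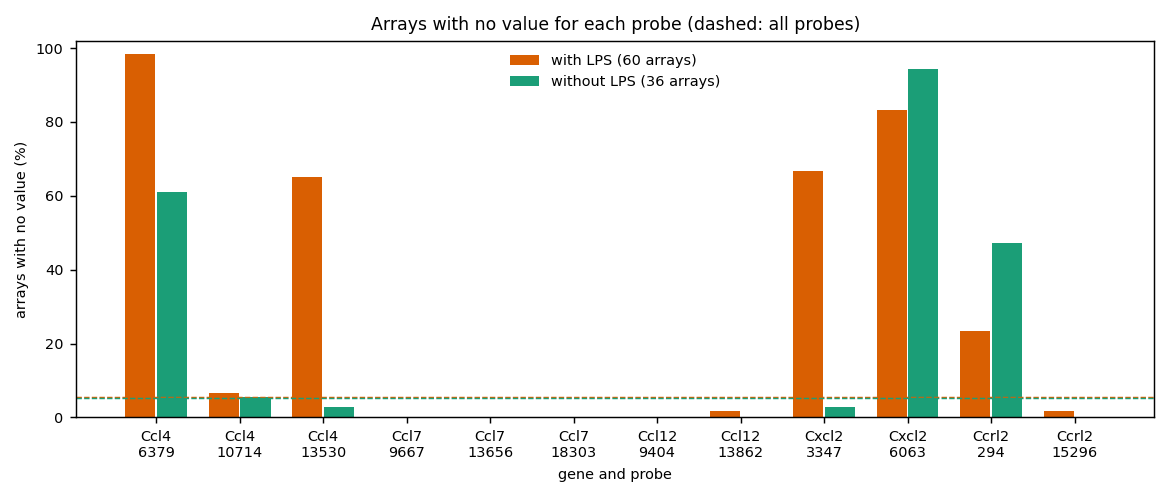
Percentage of arrays with no value (y axis) for each of the 12 probes (x axis), on the 60 arrays with LPS and the 36 without. Dashed lines give the percentage over all probes (5.45 and 5.25); Ccl4 probe 13530 and Cxcl2 probe 3347 were missing on 65% and 66.7% of arrays with LPS and on 2.78% of those without, while the Ccl7 probes were never missing.

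Ccrl2, the chemerin-binding receptor gene, rose early with LPS and was not called with either other ligand alone. Probe 294 read 1.64, 2.63 and 2.66 at 30 min, 2.58, 2.92 and 2.96 at 1 h, 3.51, 4.06 and 3.4 at 2 h, and 4.28, 4.97 and 3.94 at 4 h. Neighbouring times overlapped at 30 min and 1 h and again at 2 and 4 h, and the 1 h sets lay below the 2 h sets. The means were 2.31 ± 0.58 (adjusted p = 8.92e-07), 2.82 ± 0.21, 3.66 ± 0.36 and 4.40 ± 0.52, the last a 21.1-fold ratio. The F test over the 4 times gave an adjusted p of 0.000788, and 0.103 without set 1. The probe was missing on 14 of 60 arrays with LPS and 17 of 36 without it.

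With 2MA probe 294 read 1.69, 0.61 and 0.26 at 1 h and 0.50, 2.07 and 0.33 at 2 h. The means, 0.85 ± 0.75 and 0.96 ± 0.96, were not called (adjusted p = 0.143 and 0.0943). Cy3 arrays alone called the 2 h value (1.11, adjusted p = 0.0152). Both means lay below LPS alone, by -1.97 at 1 h (SE 0.40, adjusted p = 0.00289) and -2.69 at 2 h (SE 0.40, adjusted p = 1.5e-05, with 2.92% of all probes called downward). Without set 3 the 1 h difference was -1.60 (adjusted p = 0.2). At 4 h only 1 set had a value, 0.34, so no test was made there. For 4 h the downward calls of 2MA against LPS were Ccl7, Ccl12 and Ccl4, 5 of 7 tested probes (6.98% of all probes).

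With IFNG probe 294 read 0.90, 0.81 and 0.59 at 2 h (mean 0.77 ± 0.16, adjusted p = 0.199) and had no value at 4 h. This 2 h value was called in the fit of single arrays (0.78, adjusted p = 0.0447) and in the fit to its group alone (adjusted p = 0.000856). With LPS and IFNG its means were 2.96 ± 0.42 (n = 2), 3.83 ± 0.52 and 3.59 ± 0.51, and the difference from LPS alone at 4 h was -0.80 (SE 0.40, adjusted p = 0.474), with set 3 at 0.23. With LPS and 2MA the means were 3.59 ± 0.07, 4.07 ± 0.73 and 4.58 ± 0.26. At 1 h all 3 of these sets lay above all LPS sets, and the difference, 0.77 (95% interval -0.04 to 1.58), had an adjusted p of 1. The second Ccrl2 probe, 15296, stayed between -0.09 and 0.30 in all 16 groups and was called in none, and it correlated with probe 294 at -0.153 over 41 sets.

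**Figure D4:**
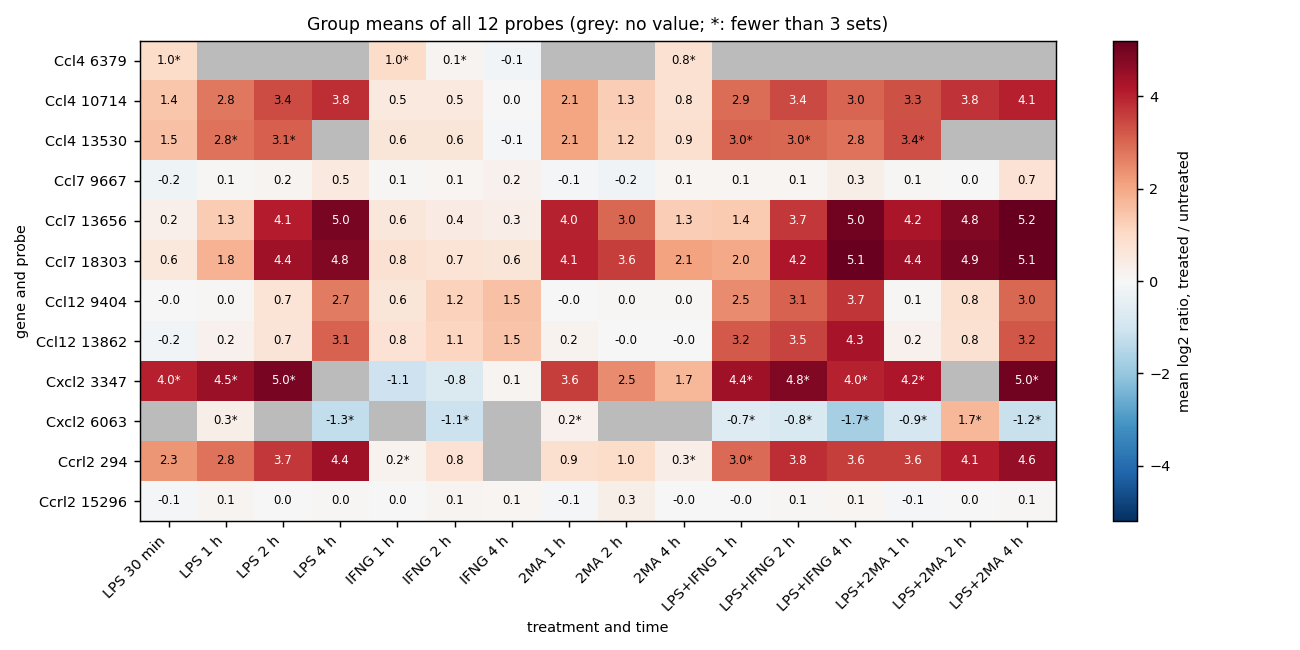
Mean log2 ratio of treated to untreated RNA for each of the 12 probes (y axis) in each of the 16 groups (x axis), with the colour scale in log2 units. Grey marks a group with no value and an asterisk a mean of fewer than 3 sets; Ccl7 probe 9667 reaches at most 0.74 and Ccrl2 probe 15296 at most 0.30, below the highest means of the other probes of their genes.

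The genes of most similar pattern were taken as the 3 with the highest Pearson r over the 16 group means, among 14895 probes with a mean in all groups. For Ccl4 probe 10714 they were Rabgef1 (0.971), the cytokine gene Il1b (0.955) and Fabp4 (0.935). For Ccl7 probe 13656 they were Nck1 (0.904), the calcium pump gene Atp2b1 (0.902) and Ptpn12 (0.896), and probe 18303 had Ptpn12 and Atp2b1 among its 3 as well. For Ccl12 they were Ifi211 (0.958), Dtnbp1 (0.956) and Pnp (0.949) by probe 9404, and Furin (0.946), Dtnbp1 (0.944) and Sod2 (0.942) by probe 13862. The remaining probes of Ccl7 and Ccrl2 had other neighbours, Pcgf5 (0.927) first for Ccl7 probe 9667 and Vps35l (0.810) first for Ccrl2 probe 15296. The points share sets and untreated cells, so these r values are descriptions.

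The rest of the chemokine system was read from lists of ligands and receptors that include the 5 genes. A listed gene counted as called if any of its probes was called, while the shares beside these counts are of probes. The counts and the shares are therefore not on the same footing. Of 4 Ccr2 ligands (Ccl2, Ccl7, Ccl8 and Ccl12), 2 rose with LPS at 1 h (3.2% of all probes rose), 2 with IFNG at 2 h (2.86%) and 2 with 2MA at 1 h (0.951%). The list medians were 0.76, 0.92 and 0.17, where the medians over all probes lay within 0.01 of 0. Ccl2, the best known monocyte chemoattractant, rose with all 3 ligands by its probe 4412. It gave 2.14 ± 0.46 with LPS at 1 h, 3.60 ± 1.24 with 2MA at 1 h and 2.24 ± 0.38 with IFNG at 4 h (adjusted p = 8.52e-06, 5.86e-07 and 2.2e-06). Ccl8 was called only with LPS and IFNG at 4 h (0.86 ± 0.41, adjusted p = 2.03e-06).

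Among other CC chemokines, Ccl5 (RANTES) reached 3.79 ± 0.05 with LPS at 4 h by probe 10752, and Ccl9 2.27 ± 0.02 by probe 15620. Ccl3 was called downward with IFNG at 4 h (-0.77 ± 0.03, adjusted p = 0.000615). Of 5 Cxcr2 ligands tested with LPS at 1 h, Cxcl2 rose and Cxcl15 was called downward by probe 3621 (-0.43 ± 0.18), where 3.2% of all probes rose and 2.15% fell. At 4 h of LPS the Cxcl15 probes disagreed in sign, at 1.42 ± 0.29 and -0.45 ± 0.03. Cxcl1 rose with LPS and 2MA at 1 h (0.70 ± 0.62, adjusted p = 0.00166).

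Of 15 chemokine receptor genes tested with LPS at 4 h, 4 rose and 3 fell, where 11.9% of all probes rose and 14.3% fell, and the list median was 0.10. Cxcr2, the receptor of Cxcl2, rose by 1.67 ± 0.34 there. Ccr1, a receptor for several CC chemokines, rose with IFNG by 1.91 ± 0.10 at 1 h, 2.48 ± 0.34 at 2 h and 1.47 ± 0.69 at 4 h. Among the 5 tested genes of the atypical receptor and chemerin list, 2 rose with LPS at 1, 2 and 4 h, where 3.2%, 7.34% and 11.9% of all probes rose. They were Ccrl2 and the Duffy receptor gene Ackr1 (0.99 ± 0.44 at 4 h). Ackr1 was also called with IFNG at 4 h (0.67 ± 0.16, adjusted p = 2.29e-06), and Ccrl2 had no value there.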

How the data were processed

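The deposited values are log2 ratios of Cy5 to Cy3 intensity, 1 column for each of 96 two-colour arrays, per the labels, with the log base inferred from the deposited numbers. How the authors normalised them is not given in these sources. Each set (1 to 3) was hybridised in both dye orientations. The sign was turned where treated RNA was in Cy3, an exact 0 was taken as missing, and the mean of both arrays gave 48 set values. The largest deposited value was a 100-fold ratio, and 0 of 867 values of these genes were at it.

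A group-mean model over all 16 groups was fitted with limma 3.58.1 in R 4.3.3 to 15528 probes (median residual SD 0.213). A comparison was tested where each of its groups had at least 2 sets, and p-values were adjusted by the Benjamini-Hochberg method over all probes tested. The script was tested on simulated data. Of the set values of these genes, 460 of 576 existed and 53 came from 1 array. The number of arrays limits precision. Probes took their gene from the platform annotation: 13738 had 1 symbol, 52 several and 2491 none.

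Same-numbered sets deviated together (every pair's correlation over 0.1) for LPS with IFNG against LPS and 2MA against LPS at all times, and for LPS with 2MA against LPS at 2 and 4 h but not at 1 h (lowest 0.0891); the set number was therefore tried as a block. Other alternatives were the handling of zeros, each dye orientation alone, centring, the filter on missing sets, a fit to the compared groups alone, single arrays, the mean over probes, and leaving out each set. The 4 h minus 1 h test, and the fit without the 10 sets whose arrays correlated above 0, were added after the values were seen. The 5 genes and the lists were chosen with earlier results of these data known. Named were all probes of the 5 genes, the 3 genes of most similar pattern for each probe with a mean in all groups, up to 3 called genes of each list with the largest responses, and direction-check genes. One label gives 2MA as 500 nM where the others give 500 uM. The count for 1 list of chemokine ligands is not reported here.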

Additional observations from a re-analysis of the deposited data

Results flagged for a closer look

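The effect of adding a second ligand to LPS differed between 1 and 4 h for 1 probe each of Ccl7 and Ccl12, by a test of the difference itself that was chosen after the values were seen. For Ccl7 probe 13656 the effect of 2MA changed by -2.70 between 1 and 4 h, from 2.94 to 0.23, and it was smaller at 4 h in each of the 3 sets (-3.28, -2.86 and -1.96; limma adjusted p = 0.0207). For Ccl12 probe 13862 the effect of IFNG changed by -1.77, from 2.98 to 1.21, and it was smaller at 4 h in each of the 3 sets (-2.49, -2.25 and -0.57; limma adjusted p = 0.0204). The second probe of each gene missed the threshold (-2.31, adjusted p = 0.121 for Ccl7 probe 18303 and -1.42, adjusted p = 0.0647 for Ccl12 probe 9404, both by limma). The Ccl7 call was lost without any 1 set (limma adjusted p from 0.335 to 0.637) and with either dye orientation alone. The Ccl12 call was lost without set 1 and without set 2 (limma adjusted p = 0.455 for the latter). It was also lost with Cy3 arrays alone and in the fit to the compared groups (limma adjusted p = 0.0935 and 0.277).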

How the results depend on the processing

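Among 169 single results under 15 alternatives, 2082 values stayed on the same side of the threshold, 94 lost a call, 83 gained one and 10 reversed. A change of sign counted as a reversal only where the main or the alternative value was called. Uncalled values among the 2082 can therefore differ in sign. Counts below are calls of the 5 genes in either direction over the times tested. Some IFNG calls gained below were downward, all of them of Cxcl2 probe 3347 as far as listed here. At 1 h it was called downward with Cy3 arrays alone (-1.19), with single arrays (-1.09) and in the fit to the compared group (-1.09). That fit also called it downward at 2 h (-0.76). The count for IFNG moved from 2 to 4 with Cy5 arrays alone, 7 with Cy3 arrays alone, 10 in the fit to the compared group, 7 with single arrays, and 4 without the sets whose arrays correlated above 0. That last alternative left 1 set for LPS at 30 min, IFNG at 1 h and 2MA at 1 and 2 h, so comparisons with those groups were not tested. The count went from 9 to 3 for 2MA and from 7 to 3 for 2MA against LPS, with 4 h alone tested, and from 2 to 0 for LPS with IFNG against the sum, with 2 and 4 h tested. The 4 h minus 1 h change of LPS with IFNG, which was tested, went from 1 to 0. Keeping zeros took 2MA to 5. Requiring 2 sets in every group, which tests fewer probes, took LPS from 14 to 9 and LPS with IFNG from 15 to 9. Cy3 arrays alone took LPS with IFNG against the sum to 0 and both 4 h minus 1 h counts from 1 to 0. Cy5 arrays alone, and the mean over probes, took that of LPS with 2MA to 0. The fit to the compared groups took LPS with 2MA against the sum from 1 to 0 and the 4 h minus 1 h count of LPS with IFNG to 0, and single arrays took LPS with 2MA against the sum to 3. Except for the probe filter, the mean over probes and the groups left with 1 set, the cause was not tested.

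Leaving out 1 set gave 13 to 14 calls for LPS, 2 to 3 for IFNG, 5 to 8 for 2MA (5 without set 1), 11 to 14 for LPS with IFNG, 10 to 12 for LPS with 2MA, 2 to 3 for LPS with IFNG against LPS, 1 to 1 for LPS with 2MA against LPS, 6 to 8 for 2MA against LPS and 3 to 4 for the LPS times. The departures from the sum gave 0 to 2 with IFNG (0 without set 1 or set 2) and 0 to 1 with 2MA (0 without set 3). The 4 h minus 1 h changes gave 0 to 1 with IFNG and 0 to 0 with 2MA. Over all probes, leaving out a set moved the calls for 2MA from 241 to between 30 and 378 at 1 h, from 207 to between 23 and 227 at 2 h, and from 291 to between 22 and 234 at 4 h. For LPS with 2MA against LPS they moved from 17 to between 7 and 15 at 1 h and from 42 to between 1 and 16 at 4 h, so the shares of all probes called move with single sets.

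With the set number as a replicate block, 2MA against LPS had 8 calls, LPS with IFNG against LPS 3, LPS with 2MA against LPS 1, the sums 2 with IFNG and 1 with 2MA, and the 4 h minus 1 h changes 1 and 1. The pairing check failed for LPS with IFNG against the sum at 2 h (lowest correlation -0.0261). There the block gave Ccl12 probe 9404 an adjusted p of 0.0302 by limma. For the 4 h minus 1 h change, the block gave Ccl7 probe 18303 an adjusted p of 0.0455 by limma. The pairing check was not run for that change.

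The mean over probes merges probes of a gene that responded differently. The gene mean was set beside each single probe and is not a value of that probe, and 9 of the 10 reversals arose this way. Beside Ccrl2 probe 15296 the gene mean was 1.11 with LPS at 30 min and 1.77 with LPS and 2MA at 1 h. The probe itself read -0.09 and -0.06 there. The mean was 0.96 with LPS and IFNG at 1 h and -1.20 for 2MA against LPS at 2 h. Beside Ccl7 probe 9667 the gene mean was 2.67 and 2.13 with 2MA at 1 and 2 h. At 1 h it was 1.61 for 2MA against LPS and 1.86 for LPS with 2MA against LPS. Against the sum of LPS and 2MA at 2 h it was -1.77. With Cy5 arrays alone, probe 9667 gave -0.034 with LPS and IFNG at 4 h. Missing values, most frequent for Cxcl2 and for 2 of 3 Ccl4 probes, limit what can be said of those genes with LPS.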
